A study of Homo sapiens with 12 samples.

Results

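Integrins are the cell-surface receptors through which epithelial cells hold on to the extracellular matrix, and the mRNAs of 10 of their subunits were followed here in A549 cells, an established human lung adenocarcinoma line. The genes were taken by name, 5 α subunits (ITGA2, ITGA3, ITGA5, ITGA6 and ITGAV) and 5 β subunits (ITGB1, ITGB3, ITGB4, ITGB5 and ITGB6), and each matched 1 of the 57879 gene identifiers in the tables. RNA sequencing had been done on 4 stable lentiviral lines. In sh-TAF15 cells an shRNA lowers TAF15, which binds RNA and belongs to the FET proteins, and the sh-NC line carries the matching control construct. In TIF1γ cells TIF1γ (gene TRIM33), a nuclear ubiquitin ligase that acts in TGF-β family signalling, is overexpressed, and vector cells carry the empty vector. The labels give the sh-NC and vector lines as wild type, and all lines share the A549 background and a lentiviral infection. The labels list 12 libraries, of which 8 were used here: sh-TAF15 replicates 2 and 3, sh-NC replicate 2, TIF1γ replicates 2 and 3, and vector replicates 1, 2 and 3. Levels are FPKM, fragments counted per length of transcript and per depth of the library, so genes can be compared with each other within a library.

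The targeted gene TRIM33 had 8.03 and 6.14 FPKM in TIF1γ cells, against 2.23, 2.10 and 1.27 FPKM in vector cells, so every TIF1γ library lay above every vector library. Its fitted log2 fold change of 1.46 did not pass the test (adjusted p = 0.13 in limma, over 13907 genes). TAF15 was not matched to an identifier, so its knockdown was not checked here. Of the A549 epithelial markers, KRT7 ranged from 1516 to 1922 FPKM in the 3 shRNA libraries and from 1764 to 3746 FPKM in the other 5. KRT8 and KRT18 were listed at exactly 0 in both TIF1γ libraries, beside 1129 to 2235 FPKM in the shRNA libraries and 4561 to 5747 FPKM in the vector libraries; they were left out of the tests with 17 other such genes, none of them an integrin. KRT19 was at 0.243 to 0.775 FPKM in the shRNA libraries and 26.9 to 61.7 FPKM in the other 5. Of 7 fibroblast markers, DCN was listed at 0 in every library. COL1A1 was at 2.43 to 3.64 FPKM in the shRNA libraries, against 0.260 to 1.11 FPKM in the other 5. COL1A2 was at 1.04 to 1.85 FPKM, against at most 0.0473 FPKM. The remaining fibroblast markers stayed under 1 FPKM in every library. On the first axis of a principal component analysis (61.6% of the variance) the shRNA libraries stood apart from the rest.

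An integrin is a pair of 1 α and 1 β subunit, and the pairing decides the ligand. The β1 subunit joins α2 to bind collagen, α3 or α6 to bind laminin and α5 to bind fibronectin. The αV subunit pairs with β1, β3, β5 or β6 to bind vitronectin, fibronectin and the latency peptide of TGF-β, and α6β4 anchors epithelia to laminin in hemidesmosomes. Because an α subunit reaches the surface only with a partner, the make-up of the subunit pool is of interest beside each gene's own level.

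The RefSeq table of promoters (GRCh38.p14, windows of 250 bases before each annotated start) held 12 windows for 7 of the 10 genes, ITGA2, ITGA5, ITGA6, ITGAV, ITGB1, ITGB5 and ITGB6. They were searched on both strands for the AP-1 site TGANTCA, the SMAD box CAGAC, the GC box GGGCGG and the TATA box TATAAA. The AP-1 letters occurred in 0 of the 12 windows, against 6.57% of all 35116 windows. The SMAD box letters occurred in 4, against 38.0% of all, the GC box in 6, against 42.64%, and the TATA box in 2, against 10.72%. A match of letters is a description and not a binding site. Shown here are ITGA2 and ITGB5, which moved in opposite directions in the shRNA lines, and ITGB6. With ITGB3, ITGB6 was among the 2 least abundant of the 10 subunits. Of the 3 ITGB5 windows, the one with the most GC boxes is shown. Capitals mark GC boxes in either orientation.

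ITGA2, chr5:52989102-52989351, + strand: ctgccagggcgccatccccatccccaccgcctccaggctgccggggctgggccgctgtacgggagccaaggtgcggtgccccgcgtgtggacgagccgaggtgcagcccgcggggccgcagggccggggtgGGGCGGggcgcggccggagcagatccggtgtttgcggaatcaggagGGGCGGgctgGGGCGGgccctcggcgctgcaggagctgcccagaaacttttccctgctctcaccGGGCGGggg

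ITGB5 (start 3 of 3), chr3:124887366-124887615, − strand: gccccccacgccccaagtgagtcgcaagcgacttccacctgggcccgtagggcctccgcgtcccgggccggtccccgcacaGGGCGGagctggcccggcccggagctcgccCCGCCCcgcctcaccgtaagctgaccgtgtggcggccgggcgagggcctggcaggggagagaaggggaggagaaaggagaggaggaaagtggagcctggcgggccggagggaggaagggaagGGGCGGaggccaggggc

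ITGB6, chr2:160200273-160200522, − strand: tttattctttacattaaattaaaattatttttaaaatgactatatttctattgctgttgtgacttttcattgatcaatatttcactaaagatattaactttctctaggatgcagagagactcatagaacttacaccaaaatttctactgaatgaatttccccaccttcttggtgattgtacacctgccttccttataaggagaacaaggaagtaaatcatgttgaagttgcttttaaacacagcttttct

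The ITGA2 window was 76.4% G and C with 4 GC boxes, and the ITGB5 window shown was 75.2% with 3. The other ITGB5 windows were 52.8% with 2 GC boxes (start 1) and 56.4% with 0 (start 2). The ITGB6 window was 30.0% G and C, held 0 CpG pairs and none of the 4 motifs.

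In the shRNA lines ITGB1 was the most abundant of the 10 subunits, at 266.0 to 423.8 FPKM. ITGB4 followed in sh-TAF15 cells, at 138.4 and 176.0 FPKM, above ITGA3 at 127.6 and 136.8, and ITGB5 came after them at 94.5 and 107.6. In the sh-NC library ITGA3 (225.4) was second, and ITGB5 (102.3) and ITGB4 (100.8) were nearly equal. The TIF1γ and vector lines had another order at the top. ITGB5 led in TIF1γ cells, at 264.6 and 206.6 FPKM beside 55.6 and 161.6 for ITGB1, and in vector cells ITGB5 (147.3 to 233.9) and ITGB1 (159.8 to 165.9) overlapped. Both lay above ITGA3 in vector cells (50.1 to 87.5). The ITGA3 range overlapped that of ITGB4 (24.9 to 50.9) by a narrow margin, but ITGA3 stood above ITGB4 in every vector library. Below these in vector cells came ITGA5 (13.3 to 17.4), ITGAV (10.6 to 14.2) and ITGA6 (7.54 to 10.7). Neighbouring ranges overlapped, but every vector library held this order. ITGA2 (0.734 to 1.28), ITGB6 (0.0334 to 0.466) and ITGB3 (0.0527 to 0.242) were at the bottom there, the last 2 overlapping.

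**Figure D1:**
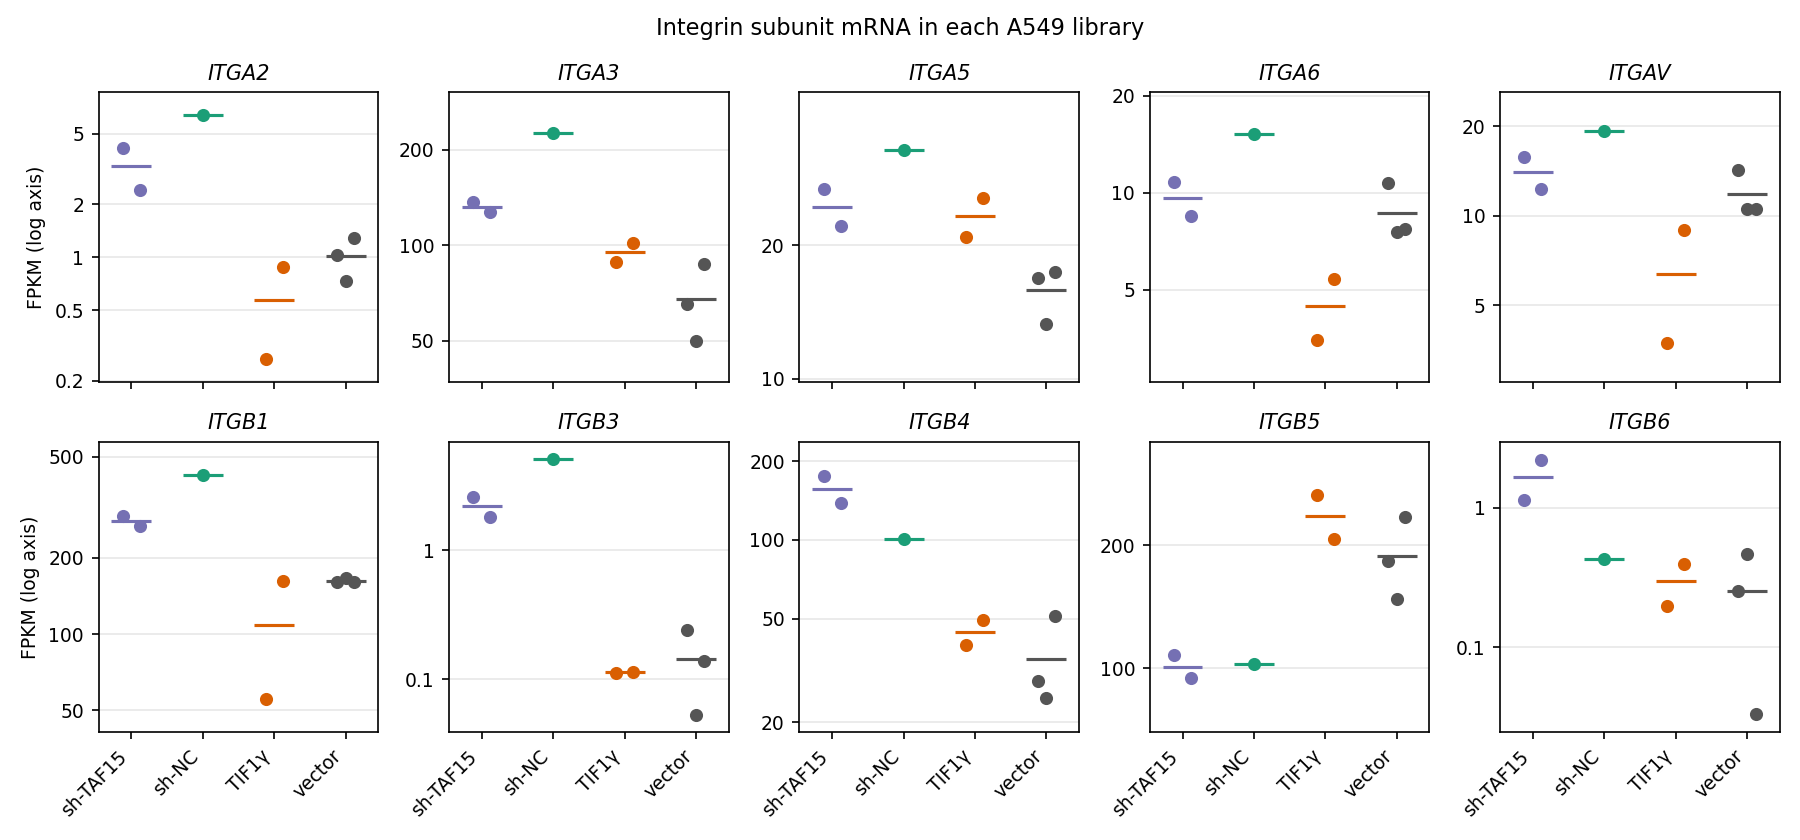
FPKM of the 10 integrin subunits in each library on log axes that differ between panels; each point is 1 library and each bar the group's mean (2 sh-TAF15, 1 sh-NC, 2 TIF1γ and 3 vector libraries). ITGA2, ITGA3, ITGB1, ITGB3 and ITGB4 were higher in all 3 shRNA libraries than in the other 5, and ITGB5 was lower in all 3.

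The make-up of the β pool also set the 2 pairs of lines apart. Of the summed FPKM of the 5 β genes, ITGB5 held 18.6% and 18.8% in sh-TAF15 cells and 16.2% in sh-NC cells, against 73.5% and 49.4% in TIF1γ cells and 49.1%, 43.5% and 52.6% in vector cells. ITGB1 held 50.3% and 52.9% in sh-TAF15 cells and 67.0% in sh-NC cells, against 15.4% and 38.7% in TIF1γ cells and 43.1%, 49.0% and 35.9% in vector cells. The lowest ITGB1 share was that of TIF1γ replicate 2, which also had the lowest ITGB1 level. Taken over all 10 genes, the ITGB1 shares overlapped, with 37.63% and 39.36% in sh-TAF15 cells beside 39.42% in vector replicate 2. ITGB4, the partner of α6 alone, held 30.5% and 27.5% in sh-TAF15 cells and 15.9% in sh-NC cells, and between 7.34% and 11.8% in the other libraries. Among the genes whose products pair with αV, ITGB3 never held more than 0.97% and ITGB6 never more than 0.602%, so the sum consisted almost wholly of ITGB1 and ITGB5. The ratio of ITGB5 to ITGAV was 6.82 and 7.67 in sh-TAF15 cells and 5.29 in sh-NC cells, against 71.2 and 23.0 in TIF1γ cells and 12.9, 13.9 and 22.1 in vector cells. Shares and ratios were not corrected for transcript GC, which was 38.3% for ITGAV, 39.5% for ITGB1 and 54.3% for ITGB5. Transcript GC went with the difference between the shRNA and other lines (Spearman's rho -0.599 over 11682 genes). Its part in the shares and ratios was not tested.

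The make-up of the 5 α genes differed less. ITGAE, an α subunit outside the 5 and not counted in these shares, was at 51.9 to 109 FPKM over the 8 libraries. It stood above ITGA3 in vector replicate 1 (81.8 beside 65.2 FPKM), vector replicate 2 (109 beside 50.1) and TIF1γ replicate 2 (90.4 beside 88.9). In the remaining libraries it stood below ITGA3. ITGA3, the α3 chain of the laminin receptor α3β1, held 70.4% to 75.4% of the summed α level in the shRNA libraries and 60.4% to 75.8% in the other 5, and these ranges overlapped. ITGAV held 3.17% and 6.31% in TIF1γ cells, against 13.2%, 12.9% and 8.49% in vector cells. These shares were described and not tested.

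**Figure D2:**
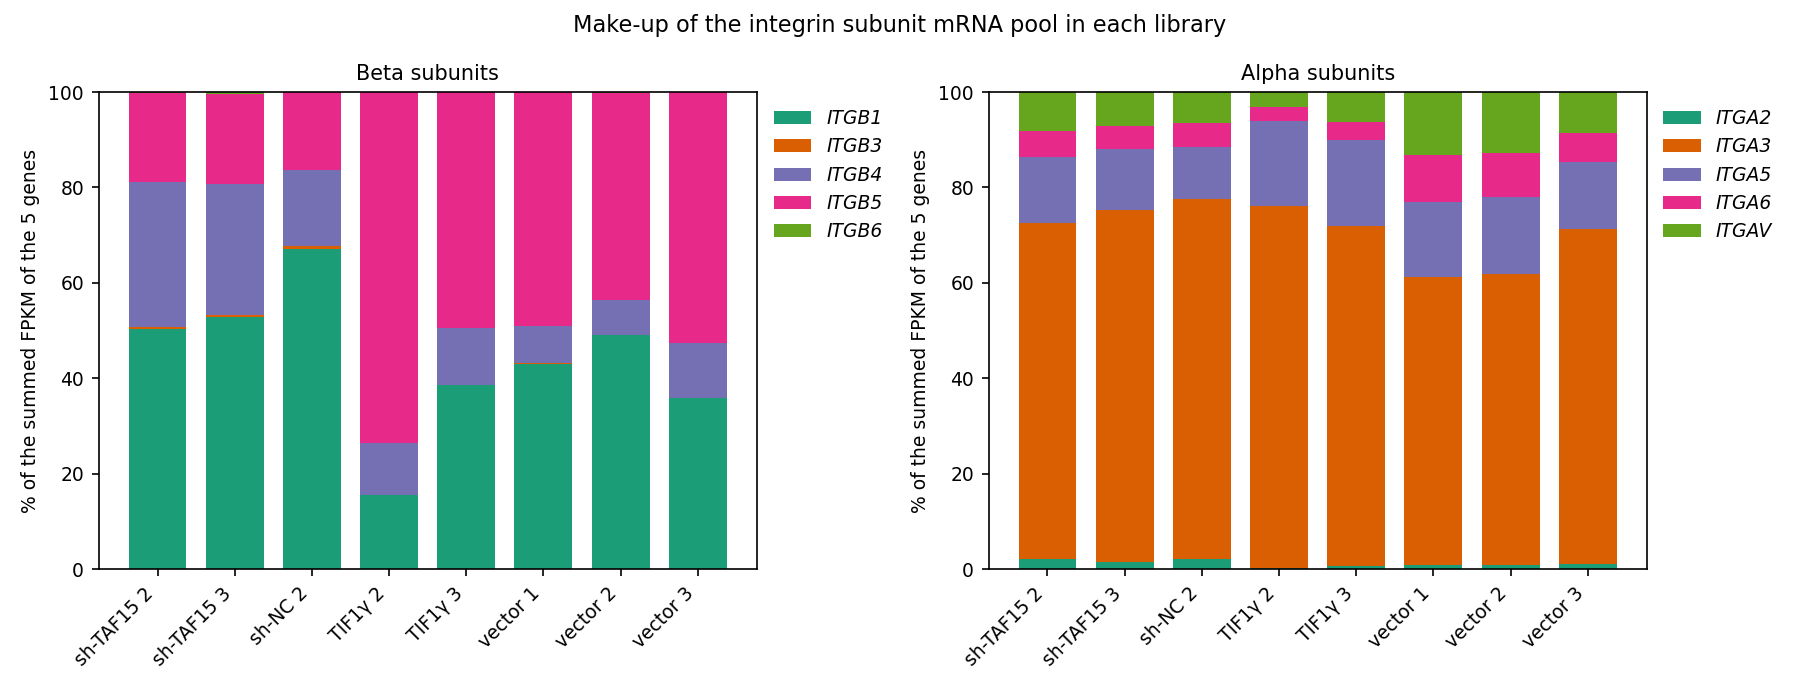
Percentage that each subunit held of the summed FPKM of the 5 β genes (left) and the 5 α genes (right), with 1 stacked bar per library. ITGB5 filled 16.2% to 18.8% of the β bar in the 3 shRNA libraries and 43.5% to 73.5% in the other 5, while ITGA3 filled most of the α bar in all 8. The shares are not corrected for transcript GC.

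TIF1γ overexpression moved no subunit past the test. Fold changes are on the log2(FPKM + 1) scale, which understates low genes, and a call is an adjusted p under 0.05 in limma, with Benjamini-Hochberg adjustment over all 13907 genes tested. The same test called 0.0144% of all genes higher and 0.00719% lower in TIF1γ cells, so 0 of 10 subunits is near that background. At an unadjusted p under 0.05 in limma there were 2, both α chains, beside 2771 of the 13907 genes tested. ITGAV was at 3.72 and 8.98 FPKM in TIF1γ cells, against 14.2, 10.6 and 10.6 FPKM in vector cells, a log2 fold change of -0.96 (SE 0.34, unadjusted p = 0.0131, adjusted p = 0.206 in limma). ITGA6, the laminin-binding partner of β1 and β4, was at 3.49 and 5.41 FPKM in TIF1γ cells, against 10.7, 7.54 and 7.70 FPKM in vector cells, a log2 fold change of -0.90 (SE 0.29, unadjusted p = 0.0075, adjusted p = 0.2 in limma). For both genes every TIF1γ library lay below every vector library. ITGAV was lowest in TIF1γ replicate 2, and over 19 alternative analyses its log2 fold change ranged from -1.58 to -0.25. That of ITGA6 ranged from -1.24 to -0.36. In bulk RNA, fewer cells of a kind and less RNA per cell cannot be told apart.

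In the other direction, ITGA5, the fibronectin receptor chain, was at 20.9 and 25.6 FPKM in TIF1γ cells, against 16.9, 13.3 and 17.4 FPKM in vector cells (log2 fold change 0.45, SE 0.25, adjusted p = 0.312). ITGA3 was at 88.9 and 101.5 FPKM in TIF1γ cells, against 65.2, 50.1 and 87.5 FPKM in vector cells (log2 fold change 0.44, SE 0.28, adjusted p = 0.36). In these 2 genes the groups did not overlap either. Over all genes tested, 20.8% had every TIF1γ library above every vector library and 16.8% had every one below, so 2 of 10 subunits each way is close to that background. ITGB1 was at 55.6 and 161.6 FPKM in TIF1γ cells, against 160.9, 165.9 and 159.8 FPKM in vector cells. Its log2 fold change of -0.85 (SE 0.39, adjusted p = 0.254) rested on TIF1γ replicate 2, and without that library it was 0.01. ITGB5, the abundant vitronectin receptor chain, differed by 0.26 (SE 0.26, adjusted p = 0.57) and ITGB4 by 0.32 (SE 0.32, adjusted p = 0.554). ITGA2 differed by -0.41 (adjusted p = 0.426). ITGB3 and ITGB6 were nearest to 0, at -0.05 (adjusted p = 0.93) and 0.06 (adjusted p = 0.923).

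The base composition of the transcripts went with this comparison across the whole transcriptome. Over 11682 genes, Spearman's rho between the TIF1γ fold change and transcript GC was 0.799, a description across genes that share the same 5 libraries. The median log2 fold change was -0.58 for transcripts under 40% GC and 0.49 for those over 60%. The subunits span that range, with ITGAV at 38.3%, ITGB1 at 39.5%, ITGA2 at 40.2%, ITGA6 at 43.5%, ITGB6 at 44.1%, ITGB3 at 51.7%, ITGB5 at 54.3%, ITGA5 at 58.7%, ITGA3 at 60.4% and ITGB4 at 63.1%. In the TIF1γ comparison 5 of the 10 lay within the middle 50% of genes of like GC, 4 lay below and 1, ITGB6, lay above. With the trend against GC and length removed from each library, ITGA6 remained at -0.46 (unadjusted p = 0.0306, adjusted p = 0.659 in limma), ITGAV came to -0.32 (adjusted p = 0.753), and ITGA3 and ITGA5 came to 0.11 and 0.18 (adjusted p = 0.916 and 0.857).

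**Figure D3:**
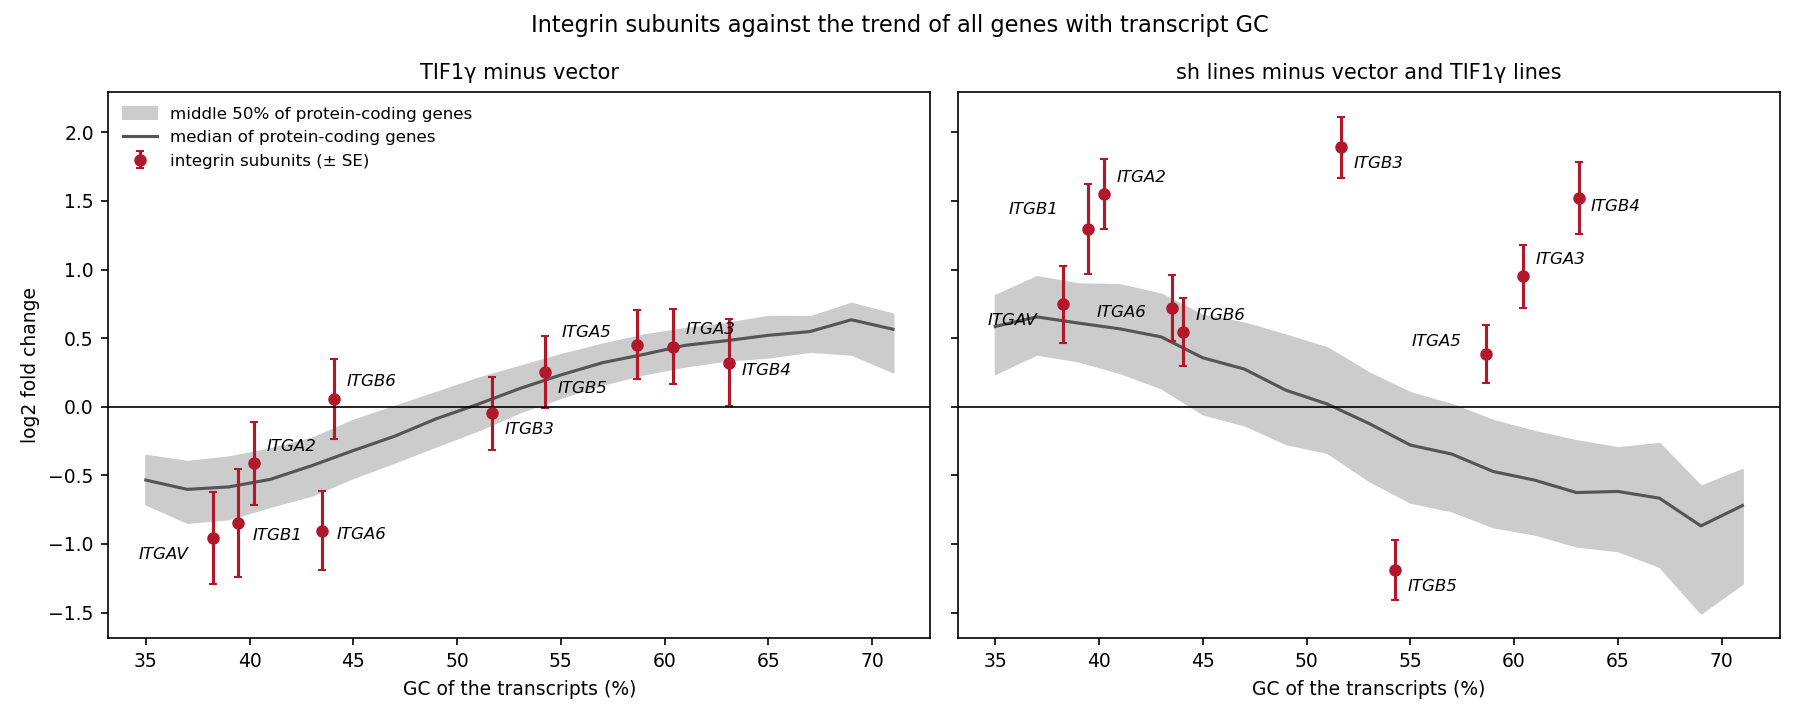
Log2 fold change (± SE) of each integrin subunit against the GC content of its transcripts, in percent, for TIF1γ minus vector (left) and the shRNA lines minus the vector and TIF1γ lines (right); the grey line and band are the median and the middle 50% of protein-coding genes of like GC. The subunits lie near the rising band on the left, while on the right ITGB3, ITGB4 and ITGA3 lie above the falling band and ITGB5 below it.

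In the TAF15 knockdown, most subunits stood below their control, and none passed the test. The lowest p-values of the 10 were those of ITGB3 and ITGA3. The comparison has 2 sh-TAF15 libraries and a single sh-NC library, whose spread is taken to be like that of the other groups. ITGB3, the β chain of the vitronectin receptor αVβ3, was at 2.60 and 1.82 FPKM in sh-TAF15 cells, against 5.16 FPKM in sh-NC cells, a log2 fold change of -0.98 (SE 0.36, unadjusted p = 0.0165, adjusted p = 0.697 in limma). ITGA3 was at 136.8 and 127.6 FPKM in sh-TAF15 cells, against 225.4 FPKM in sh-NC cells (log2 fold change -0.83, SE 0.37, unadjusted p = 0.042, adjusted p = 0.856 in limma). ITGA2, the collagen receptor chain, was at 4.18 and 2.42 FPKM in sh-TAF15 cells, against 6.41 FPKM in sh-NC cells (log2 fold change -0.85, SE 0.41, adjusted p = 0.889). Both sh-TAF15 libraries lay below the sh-NC library for these 3 genes. The same held for ITGB1, at 290.6 and 266.0 FPKM in sh-TAF15 cells, against 423.8 FPKM in sh-NC cells, and for ITGA5, ITGA6 and ITGAV, whose log2 fold changes were -0.48, -0.67 and -0.50. The 4 genes had adjusted p-values between 0.916 and 0.959.

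Only ITGB4 and ITGB6 had both sh-TAF15 libraries above the sh-NC library. ITGB4 was at 176.0 and 138.4 FPKM in sh-TAF15 cells, against 100.8 FPKM in sh-NC cells (log2 fold change 0.56, SE 0.43, adjusted p = 0.952). ITGB6, the β chain of the latent TGF-β activator αVβ6, was at 1.13 and 2.20 FPKM in sh-TAF15 cells, against 0.426 FPKM in sh-NC cells (log2 fold change 0.81, SE 0.39, adjusted p = 0.889). The 2 sh-TAF15 libraries were the only ones in which ITGB6 reached 1 FPKM, so it entered the test through them alone. ITGB5 hardly differed, at 107.6 and 94.5 FPKM in sh-TAF15 cells, against 102.3 FPKM in sh-NC cells. With 1 control library the background is wide. Of all genes tested, 33.7% had both sh-TAF15 libraries below sh-NC and 39.3% had both above, while the test called 0.0503% higher and 0.00719% lower.

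**Figure D4:**
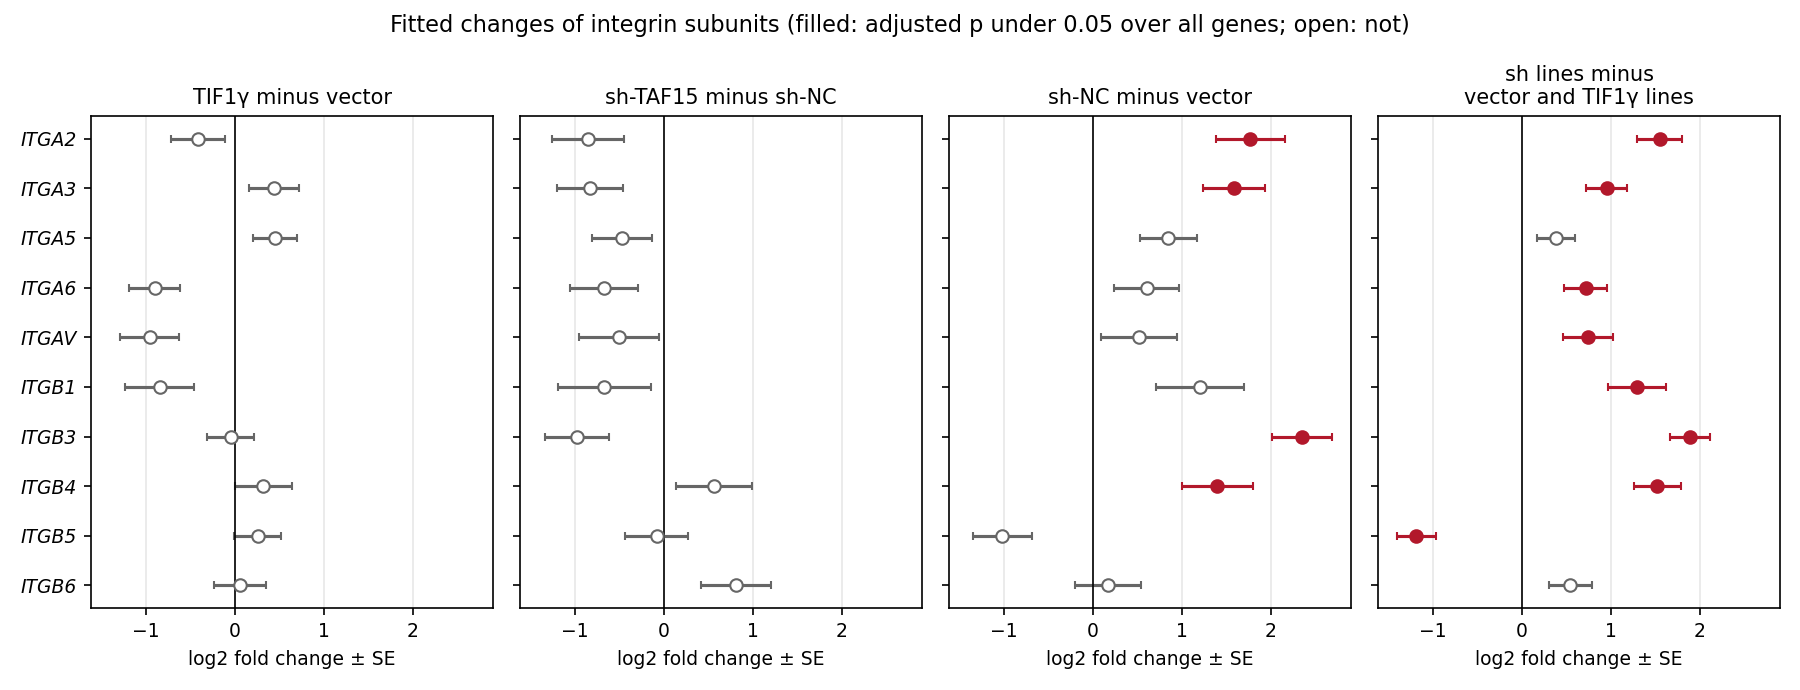
Fitted log2 fold change of each subunit, with its standard error as a bar, in 4 comparisons; filled points have an adjusted p under 0.05 and open points do not. No point is filled for TIF1γ or for TAF15 knockdown, 4 are filled for sh-NC minus vector, and 8 for the shRNA lines minus the vector and TIF1γ lines.

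A test of the difference between the TIF1γ effect and the TAF15 knockdown effect called 0 of the 10 subunits (adjusted p = 1 for each in limma), against 0.0144% of all genes higher and 0.0288% lower. Without the adjustment, the lowest p-values of the 10 were those of ITGA3 and ITGA5. ITGA3 had a difference of 1.27 on the log2 scale (SE 0.46, unadjusted p = 0.0159 in limma) and ITGA5 a difference of 0.93 (SE 0.42, unadjusted p = 0.0458 in limma). Both genes stood above the control in TIF1γ cells and below it in sh-TAF15 cells.

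The libraries of the 2 control lines were not alike. This contrast was larger than that of either manipulation for ITGA2, ITGA3, ITGA5, ITGB1, ITGB3, ITGB4 and ITGB5. ITGAV and ITGA6 moved further in TIF1γ cells (-0.96 and -0.90, beside 0.52 and 0.60 here). ITGA6 and ITGB6 did so in sh-TAF15 cells (-0.67 and 0.81, beside 0.60 and 0.17 here). The sizes were not tested against each other. The sh-NC line is 1 library, so its own spread was not measured and was taken to be like that of the other groups. Transcript GC went with this contrast too, with rho of -0.486 over 11682 genes. In sh-NC cells against vector cells, 4 subunits rose and 0 fell by the test, beside 3.78% of all genes higher and 7.21% lower. That balance depended on scaling, with 6.46% higher and 5.62% lower unscaled, and 3.95% and 5.03% with equal library sums. ITGB3 was at 5.16 FPKM in sh-NC cells, against 0.242, 0.0527 and 0.139 FPKM in vector cells, a log2 fold change of 2.36 (SE 0.34, adjusted p = 0.000616). ITGA2 was at 6.41 FPKM in sh-NC cells, against 1.03, 0.734 and 1.28 FPKM in vector cells (log2 fold change 1.77, SE 0.39, adjusted p = 0.01), a call that was lost with the replicate block and the GC and length trend removed together (1.18, adjusted p = 0.151). Neither mRNA exceeded 1.28 FPKM in the vector line. ITGB3 reached 1 FPKM in the 3 shRNA libraries alone, so it entered this test only through lines in which it was high. ITGA3 was at 225.4 FPKM in sh-NC cells, against 65.2, 50.1 and 87.5 FPKM in vector cells (log2 fold change 1.59, SE 0.35, adjusted p = 0.0107). ITGB4 was at 100.8 FPKM in sh-NC cells, against 28.9, 24.9 and 50.9 FPKM in vector cells (log2 fold change 1.40, SE 0.40, adjusted p = 0.0406), a call that was lost in 7 of 18 alternative analyses, among them those without TIF1γ replicate 2 (adjusted p = 0.0616), TIF1γ replicate 3 (0.0555) or vector replicate 1 (0.0679). ITGB1 (log2 fold change 1.21, SE 0.50, adjusted p = 0.14) was called once TIF1γ replicate 2 (adjusted p = 0.0193) or replicate 3 (0.0155) was left out, and ITGB5 without vector replicate 2 (-1.20, adjusted p = 0.0333). The sh-NC library lay above every vector library for 8 subunits and below them for ITGB5 (log2 fold change -1.02, SE 0.33, adjusted p = 0.0647). Over all genes, 45.4% lay above and 29.7% below in this way.

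Taking both shRNA lines against both other lines, 3 libraries against 5, limma called 7 subunits higher and 1 lower, beside 20.4% of all genes higher and 21.1% lower. Scaling moved that balance too, to 27.6% higher and 16.6% lower unscaled, and 28% higher and 14.1% lower with equal library sums. The 5 subunits whose shRNA libraries all lay above the other 5 were ITGA2, ITGA3, ITGB1, ITGB3 and ITGB4, and ITGB5 lay wholly below. Over all genes tested, 24.4% lay wholly above and 12.4% wholly below. The construct, and any difference in culture, RNA preparation or sequencing between the 2 pairs of lines, cannot be told apart here.

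Among the β chains, ITGB3 had the widest contrast. It ranged from 1.82 to 5.16 FPKM (median 2.60) in the shRNA libraries and from 0.0527 to 0.242 FPKM (median 0.114) in the vector and TIF1γ libraries, with a log2 fold change of 1.89 (SE 0.22, adjusted p = 3.67e-05). On the FPKM scale the means differed 24.2-fold, at 3.19 ± 1.74 in the shRNA libraries (SD, n = 3) and 0.132 ± 0.0693 in the other libraries (SD, n = 5). ITGB3 reached 1 FPKM in the 3 shRNA libraries alone, so it entered the test through the group in which it was high. With a pseudocount of 0.1 its log2 fold change was 3.82 (adjusted p = 0.000317). In GENCODE 29, 51.6% of its exon bases lie also in the readthrough gene AC068234.1 on the same strand, which stood at most at 0.405 FPKM in any library, so how reads were shared between the 2 genes is uncertain. ITGB6 shares 20.6% of its exon bases with the same-strand gene AC092153.1, which was not used here, and ITGA5, ITGA6 and ITGAV share at most 2.98% with any antisense gene.

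ITGB4 was at 100.8 to 176.0 FPKM in the shRNA libraries, against 24.9 to 50.9 FPKM in the others (log2 fold change 1.52, SE 0.27, adjusted p = 0.000865). ITGB1, the chain most α subunits need, was at 266.0 to 423.8 FPKM in the shRNA libraries, against 55.6 to 165.9 FPKM in the others (log2 fold change 1.29, SE 0.33, adjusted p = 0.00917). ITGB5 was the one subunit that fell. It was at 94.5 to 107.6 FPKM in the shRNA libraries, against 147.3 to 264.6 FPKM in the others, with a log2 fold change of -1.19 (SE 0.22, adjusted p = 0.00113). Its mean was 101.5 ± 6.60 FPKM in the shRNA libraries (SD, n = 3) and 207.1 ± 45.2 FPKM in the others (SD, n = 5). ITGB6 missed the test, at 0.426 to 2.20 FPKM in the shRNA libraries and 0.0334 to 0.466 FPKM in the others (log2 fold change 0.54, SE 0.25, adjusted p = 0.0886).

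Among the α chains, ITGA2 was at 2.42 to 6.41 FPKM in the shRNA libraries, against 0.265 to 1.28 FPKM in the others, a log2 fold change of 1.55 (SE 0.26, adjusted p = 0.000512). ITGA3 was at 127.6 to 225.4 FPKM in the shRNA libraries, against 50.1 to 101.5 FPKM in the others (log2 fold change 0.95, SE 0.23, adjusted p = 0.00578). These are the collagen-binding chain and the most abundant laminin-binding chain. ITGA6, at 8.46 to 15.2 FPKM in the shRNA libraries and 3.49 to 10.7 FPKM in the others, passed with a log2 fold change of 0.72 (SE 0.24, adjusted p = 0.0291). ITGAV, at 12.3 to 19.3 FPKM in the shRNA libraries and 3.72 to 14.2 FPKM in the others, passed with 0.75 (SE 0.28, adjusted p = 0.0473). For both of these the groups overlapped. ITGA5, at 22.1 to 32.8 FPKM in the shRNA libraries and 13.3 to 25.6 FPKM in the others, did not pass (log2 fold change 0.38, SE 0.21, adjusted p = 0.156).

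Transcript GC moved with this contrast in the opposite sense, with rho of -0.599 over 11682 genes. Against genes of like GC, 6 subunits lay above the middle 50%, 3 lay within it and ITGB5 lay below. With the GC and length trend removed, ITGB3 (1.91, adjusted p = 0.000266), ITGB4 (1.97, adjusted p = 0.000647), ITGB5 (-1.09, adjusted p = 0.000902), ITGA3 (1.34, adjusted p = 0.00113) and ITGA2 (0.85, adjusted p = 0.0112) were called again. ITGA5 was then called too (0.70, adjusted p = 0.0172). The calls of 3 AT-rich genes were lost, with ITGAV at 0.03 (adjusted p = 0.93), ITGA6 at 0.23 (adjusted p = 0.271) and ITGB1 at 0.68 (adjusted p = 0.0816). Leaving out TIF1γ replicate 2 also ended the calls of ITGA6 (0.53, adjusted p = 0.0902) and ITGAV (0.41, adjusted p = 0.155), and leaving out sh-TAF15 replicate 2 did so as well (0.63, adjusted p = 0.106, and 0.65, adjusted p = 0.135). Without vector replicate 3 only ITGAV was lost (0.72, adjusted p = 0.0825). ITGB1 was called without TIF1γ replicate 2, at 0.84 (adjusted p = 0.00945).

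Marker levels also differed between these lines. All 6 epithelial markers tested were called lower in the shRNA lines, beside 21.1% of all genes lower. KRT19 (log2 fold change -5.08, adjusted p = 6.01e-09 in limma) reached 1 FPKM only in the other lines. The adhesion molecule CDH1 (-1.38, adjusted p = 0.00242 in limma) was low in the sh-NC library alone, at 0.8569 FPKM. In sh-TAF15 cells CDH1 was at 6.959 and 6.004 FPKM, within the vector range of 4.268 to 10.41 FPKM. For EPCAM and KRT7 the shRNA libraries also overlapped the others, while for KRT19, AKR1C1 and NQO1 they did not. The summed level of the 8 epithelial markers was 6016 to 8688 FPKM in the shRNA libraries and 7905 to 18930 FPKM in the others, where the 2 TIF1γ sums hold KRT8 and KRT18 at 0. Of the 7 fibroblast markers, 2 passed the filter and both rose, beside 20.4% of all genes higher. They were COL1A1 and COL1A2, which are also among the matrix ligands. COL1A2 reached 1 FPKM in the shRNA libraries alone and so entered the test through the group in which it was high. The summed level of the 7 was 4.31 to 6.05 FPKM in the shRNA libraries and 0.403 to 1.65 FPKM in the others. The part of these markers in the integrin differences was not tested.

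Genes for integrin ligands changed in both directions. Of 22 matrix ligand genes tested, 13 rose and 5 fell in the shRNA lines, beside 20.4% of all genes higher and 21.1% lower (median log2 fold change 0.98, beside 0.015 over all genes tested). Of the 13, 4 reached 1 FPKM in the shRNA libraries alone, EDIL3, TNC, COL1A2 and FBN1, so they entered the test through the group in which they were high. The collagen IV chains COL4A1 (2.99, adjusted p = 5.22e-07) and COL4A2 (2.05, adjusted p = 0.000122) rose, as did EDIL3, an αV ligand (2.50, adjusted p = 2.93e-06), and the matrix protein TNC (1.80, adjusted p = 7.88e-05). COL4A1 was at 29.5 to 37.6 FPKM in the shRNA libraries and at 2.24 to 3.26 FPKM in the others, without overlap. Vitronectin (VTN, -2.94, adjusted p = 2.97e-05) and fibronectin (FN1, -1.79, adjusted p = 0.00125), ligands of αVβ5 and α5β1, fell. Of the laminin chains, LAMC1 (1.18), LAMA3 (1.17) and LAMB1 (0.82) rose, and LAMB3 (-1.56), LAMB2 (-1.20) and LAMA5 (-0.79) fell.

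The genes that act inside the cell or beside integrins were read against the same background, 20.4% of all genes called higher and 21.1% called lower, and no list of them is set apart from it here. Of 23 tested activators and talin or kindlin adaptors 6 rose and 3 fell (median log2 fold change -0.07). Those that rose included TNS4, a tensin that binds β tails (2.35, adjusted p = 8.4e-06), VCL, which links talin to actin (1.16, adjusted p = 0.000882), and the kindlin FERMT2 (1.16, adjusted p = 0.00446), while LIMS2 (-1.46, adjusted p = 0.00029) fell. LIMS2, like ELMO1 and PTK2B of the focal adhesion list and LTBP1 of the latent TGF-β list, reached 1 FPKM only in the vector and TIF1γ libraries, so these 4 entered the test through the lines in which they were high. Of 7 inactivators tested 1 rose and 3 fell (median -0.48), and SHARPIN, which holds β1 integrins inactive, was the lowest by p (-1.28, adjusted p = 0.000339). Of 23 focal adhesion signalling genes 5 rose, led by CAV1 (1.38, adjusted p = 0.000589), and 6 fell (median of all 23 genes 0.20), among them the kinases SRC (-1.34, adjusted p = 0.00411) and PTK2B (-3.09, adjusted p = 0.00234). Of 13 hemidesmosome and lateral partner genes 5 rose and 5 fell (median 0.15). The tetraspanin CD82 rose (1.08, adjusted p = 0.00315) and CD151, the tetraspanin that binds α3β1 and α6β4, fell (-0.78, adjusted p = 0.00839). DST, a plakin of hemidesmosomes, rose (0.96, adjusted p = 0.0154). Integrin traffic had 2 of 16 genes higher, RAB21 and CLTC, and 3 lower (median 0.11). Of 9 genes of latent TGF-β activation 3 rose, TGFB2 (1.54, adjusted p = 0.000354), TGFBR2 (1.51, adjusted p = 0.000496) and SMAD7 (0.70, adjusted p = 0.0296), and 2 fell, LTBP1 and LTBP3 (median of all 9 genes 0.375).

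No gene of these 7 lists passed the test for TIF1γ or for TAF15 knockdown. In TIF1γ cells the lowest p-value among them was that of KRIT1, which binds the β1 inhibitor ICAP1, at 0.661 and 1.86 FPKM, against 4.48, 4.79 and 3.90 FPKM in vector cells (log2 fold change -1.36, adjusted p = 0.184). In sh-TAF15 cells it was that of THBS1, a matrix glycoprotein that binds integrins, at 1.98 and 1.70 FPKM, against 7.69 FPKM in sh-NC cells (log2 fold change -1.64, adjusted p = 0.149). In the sh-NC line against vector, where 3.78% of all genes were called higher and 7.21% lower, 6 of 22 matrix ligand genes rose and 3 fell. Of 23 adaptors 2 rose and 1 fell, of 7 inactivators 0 rose and 1 fell, and of 23 focal adhesion genes 1 rose and 2 fell. Of 9 genes of latent TGF-β activation 3 rose and 1 fell, and none of 16 traffic and 13 hemidesmosome genes was called.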

How the data were processed

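RNA-seq of 8 A549 libraries was analysed from tables of FPKM per Ensembl gene that the authors deposited. Per the submitters' processing notes, cutadapt 1.9.1, HISAT2 2.0.1, HTSeq 0.6.1 and GRCh37 were used; the software behind the FPKM is not given in the sources used here. Read totals are unknown, but whole-number steps in values under 0.5 FPKM gave depths relative to vector replicate 1 of 0.791 to 1.04, a 1.31-fold range.

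Symbols, transcript GC and length came from a GENCODE 29 annotation, and 52324 of 57879 identifiers had a symbol. Genes listed at 0 in one library and at 100 FPKM or more in another were set aside (19). Genes at 1 FPKM or more in at least 2 libraries were kept (13907, all 10 integrin genes among them). Libraries were brought to a common scale with trimmed means of their log2 ratios (trims of 30% and 5%) and log2(FPKM + 1) was fitted with limma 3.58.1 in R 4.3.3 (trend and robust, all 4 groups in 1 fit, 4 residual and 9.57 prior degrees of freedom). The shRNA contrast gave each line equal weight. The fit was also run on simulated data, with independent noise for each gene and no GC trend. That run cannot show how the calls fare under the GC trend of these libraries.

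Alternatives changed the scaling, pseudocount, filter, moderation, replicate block, GC correction and the libraries in the fit. The members, gene lists and tests were chosen with earlier results of these data known. Of each list, the genes called and the 3 lowest p-values could be named; those given are chosen from these for their role. Replicate numbers 2 and 3 are shared by the sh-TAF15, TIF1γ and vector lines, with too few pairs to treat the numbers as pairing.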

Additional observations from a re-analysis of the deposited data

How the results depend on the processing

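The 10 subunits in 5 comparisons were recomputed under every alternative that could be fitted: 803 values kept direction and side of the threshold, 26 lost the call, 10 gained it and 22 changed sign. Without sh-NC replicate 2 only TIF1γ minus vector could be fitted. Scaling moved the median of all genes by more than 0.1 in 4 comparisons: it was 0.16 unscaled and 0.19 with equal library sums for sh-NC minus vector, 0.15 and 0.25 for the shRNA lines, and, with equal sums, -0.15 for TIF1γ and -0.12 for the difference; no subunit changed sign with scaling. Genes called higher and lower were 899 and 782 unscaled and 550 and 700 with equal sums for sh-NC minus vector (526 and 1003 as reported), and 3841 and 2305 unscaled and 3899 and 1962 with equal sums for the shRNA lines (2841 and 2941 as reported). In TIF1γ minus vector ITGA2 became 0.19 and ITGB4 -0.058 with the GC and length trend removed, and 0.14 and -0.13 with the replicate block as well, and ITGB3 became 0.015 with the replicate block. With 1 library left out, ITGB1 ranged from -1.70 to 0.01, ITGB3 from -0.11 to 0.015 and ITGB6 from -0.079 to 0.19. In sh-TAF15 minus sh-NC ITGB5 ranged from -0.21 to 0.039 in this way. In sh-NC minus vector ITGAV became -0.066 and ITGB6 -0.14 with the trend removed, and ITGB6 -0.16 with the replicate block too. In the difference ITGA6 became 0.072, ITGAV 0.014 and ITGB1 0.27 under the replicate block with the trend removed, and ITGB1 became 0.07 under the replicate block alone and 0.10 with the trend removed alone. With 1 library left out the difference ranged from -0.57 to 0.082 for ITGA6, -1.08 to 0.14 for ITGAV, -1.03 to 0.66 for ITGB1 and -0.49 to 0.083 for ITGB4. With no filter (24975 genes tested), ITGA2 (adjusted p = 0.0536), ITGA3 (0.0621) and ITGB4 (0.156) were not called in sh-NC minus vector. Nor were ITGA6 (0.0739), ITGAV (0.146) and ITGB1 (0.0553) called in the shRNA lines. The cause of the changes given here was not tested.

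The number of all genes called was 3 for TIF1γ minus vector. It was 5 at a pseudocount of 0.1, 0 with no filter, 0 with a filter at a mean of 5 FPKM, 44 with the replicate block, 0 with the trend removed, 0 with both, and 1 to 296 when a library was left out (1 without TIF1γ replicate 2, 296 without vector replicate 3). For sh-TAF15 minus sh-NC it was 8, and 21 at a pseudocount of 0.1, 188 with no filter, 18 at 5 FPKM, 52 with the replicate block, 3 with the trend removed, 2 with both, 229 with only these 2 groups in the fit, and 0 to 52 when a library was left out (0 without either sh-TAF15 replicate, 52 without vector replicate 2). For sh-NC minus vector it was 1529, and 1000 with the replicate block and 458 with the trend removed as well. For the shRNA lines it was 5782, and 2580 with the replicate block and the trend removed. For the difference it was 6, and 103 with no filter, 3 at 5 FPKM, 30 with the replicate block, 0 with the trend removed as well, and 1 to 18 when a library was left out (1 without either sh-TAF15 replicate, 18 without vector replicate 2). The replicate block changed no call of a subunit except together with the trend removal. The correlation of the deviations of same-numbered TIF1γ and vector libraries was 0.171 for number 2 and 0.121 for number 3. For sh-TAF15 and vector libraries it was -0.373 and -0.236, and for number 2 of TIF1γ and sh-TAF15 it was -0.24.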

Other observations

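The genes whose levels followed a subunit most closely were named for the 3 subunits with the largest SD of scaled log2(FPKM + 1), ITGB3 (0.949), ITGB4 (0.948) and ITGB1 (0.836), with ITGA2 close behind at 0.819. Over the 8 libraries the closest protein-coding genes to ITGB3 were BCAT1 (Pearson's r 0.994), HNRNPF (0.993) and DUSP7 (0.991). BCAT1, a branched-chain amino acid transaminase, was at 4.23 to 11.2 FPKM in the shRNA libraries and at 0.132 to 0.263 FPKM in the others. For ITGB4 they were BTG2 (0.989), ZC4H2 (0.988) and FOSL2 (0.987), and for ITGB1 GOLM2 (0.991), RRAS2 (0.99) and RCAN1 (0.989). FOSL2, an AP-1 transcription factor subunit, was at 53.4 to 78.2 FPKM in the shRNA libraries and at 5.09 to 12.9 FPKM in the others. These coefficients rest on the same 8 libraries and the same split between lines, and 280, 131 and 806 genes exceeded 0.9.

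Of 16 integrin subunits outside the 10, 7 passed the filter, all but ITGAE on low values. ITGAE was at 51.9 to 109 FPKM over the 8 libraries. Its log2 fold change in the shRNA lines was 0 (adjusted p = 0.999 in limma). In the shRNA lines ITGAM rose (log2 fold change 0.83, adjusted p = 0.0167), at 1.14 to 2.42 FPKM in the shRNA libraries and 0.111 to 0.859 FPKM in the others, and ITGAL (-0.74, adjusted p = 0.0416) and ITGA7 (-0.58, adjusted p = 0.0476) fell. Each of the 3 reached 1 FPKM only in the lines in which it was high and entered the test through them. Of all genes tested, 20.4% were called higher and 21.1% lower in this contrast. Of 7 leukocyte markers 3 were tested and 2 fell in the shRNA lines, CD14 and CD68, beside 21.1% of all genes lower. None of 5 endothelial markers and 1 of 4 platelet markers, ITGA2B, passed the filter, and it was not called.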
